A study of Piaractus mesopotamicus and Piaractus mesopotamicus x Colossoma macropomum and Colossoma macropomum with 15 samples.

Results

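dre-miR-7a is a microRNA (miRNA) that was counted at 3 positions in the small RNA libraries of fish fast muscle described here, as 3 of the 595 rows (loci) of the raw count matrix. The rows were taken by name, and the name itself was chosen from measured values of these same fish, because its copies differed in level and in their pattern across genotypes. The levels, ratios, fold changes and calls of the 3 copies are therefore given as a description, with no test. The copies are numbered 1, 2 and 3 after the zebrafish precursors dre-mir-7a-1, dre-mir-7a-2 and dre-mir-7a-3 on which they lie.

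The 3 genotypes of untreated juvenile fish had 5 fish each: the hybrid tambacu (TC), from a tambaqui female and a pacu male, the pacu *Piaractus mesopotamicus* (PC) and the tambaqui *Colossoma macropomum* (TQ). The fish shared 1 holding protocol, and epaxial fast muscle near the dorsal fin was collected from each one. Nothing in the sources gives the number of tanks or parents behind each genotype, so the spread between fish may include less than the spread between families. The hybrid was set against each parent (TC vs PC, TC vs TQ) and the parents against each other (PC vs TQ), with the genotype named first on top of the fold change.

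A miRNA pairs with messenger RNAs mainly through its seed, bases 2 to 8 from the 5′ end, and lowers their translation or stability. miR-7 is an old family, shared by insects and vertebrates. In mammals it is known from neuroendocrine tissue, namely the hypothalamus, the pituitary and the pancreatic islets, where it is bound by the circular RNA Cdr1as, and messenger RNAs for the EGF receptor and alpha-synuclein are among its known targets. In *Drosophila* it takes part in eye development through the repressor Yan and in the control of Notch target genes. It is not counted among the muscle-specific miRNAs.

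The reads were aligned to zebrafish precursors (miRBase release 22), and those zebrafish sequences, not the precursors of the 3 genotypes, are shown because they decide which reads can tell the copies apart. The mature miRNA is the same 23 bases in all 3 copies, and miR-7b, the only other name with this seed among 345 zebrafish names placed on precursors, differs from it by 1 substitution within its own 21 bases, A10T, counted from 1 at the mature 5′ end with the miR-7a base first. The seed is in capitals.
miR-7a, copies 1, 2 and 3: tGGAAGACtagtgattttgttgt
miR-7b: tGGAAGACttgtgattttgtt

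Since the mature sequence is shared, the copies can be separated only by the bases around it. The whole precursors follow, with the mature miRNA in capitals, to show how different those surroundings are.
dre-mir-7a-1: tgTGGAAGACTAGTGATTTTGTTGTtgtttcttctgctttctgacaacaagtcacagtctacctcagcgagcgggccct
dre-mir-7a-2: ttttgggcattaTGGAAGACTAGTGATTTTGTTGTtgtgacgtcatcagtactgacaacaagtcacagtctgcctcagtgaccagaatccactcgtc
dre-mir-7a-3: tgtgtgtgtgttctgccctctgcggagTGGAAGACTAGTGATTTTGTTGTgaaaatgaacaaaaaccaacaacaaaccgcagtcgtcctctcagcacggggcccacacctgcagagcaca

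The mature miRNA lies at bases 3 to 25 of the 79-base precursor of copy 1, 13 to 35 of the 97-base precursor of copy 2 and 28 to 50 of the 120-base precursor of copy 3. Aligned end to end, the precursors of copies 1 and 2 were 68.7% identical, against 47.2% for copies 1 and 3 and 54.3% for copies 2 and 3. Just past the mature 3′ end, copies 1 and 2 have the same 3 bases and copy 3 has others, shown in capitals in the first 26 bases from the mature 5′ end.
copies 1 and 2: tggaagactagtgattttgttgtTGT
copy 3: tggaagactagtgattttgttgtGAA

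Reads of 17 to 26 bases were kept, so a read that starts at the mature 5′ end is the same for copies 1 and 2 at every length kept, and for copy 3 up to 23 bases. Of the 87 windows of 17 to 26 bases in precursor 1 that overlap the mature miRNA by at least 17 bases, 49 (56.3%) also occur in precursor 2, 35 (40.2%) in precursor 3 and 0 in the precursor of miR-7b. Of the 115 such windows in precursor 2, 28 (24.3%) occur in precursor 3. How reads that match several precursors were counted is not given in the sources used here.

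Total counts ranged between 2422820 and 5669084 per fish in TC, 2918058 and 5089685 in PC and 2448658 and 4143529 in TQ. Levels are given as CPM, that is counts scaled to a common library size by trimmed mean of M-values (TMM), so that 1 count equalled 0.154 to 0.444 CPM. The tissue label was checked against muscle miRNAs: miR-1 stood at 717 to 1114 CPM in TC, 657 to 881 CPM in PC and 465 to 676 CPM in TQ, while miR-133a-3p and miR-133b-3p, which also mark striated muscle, had 0 counts in every fish. The libraries carried miRNAs of other cell types too. All 6 neural markers had counts, but only miR-129-5p reached the mean normalized count of 10 needed for fold changes. Over all 15 fish, each counted copy of miR-124-3p and of miR-9-5p had 1 count. Each copy of miR-219-5p had 2, so these names rest on almost no reads, and each copy of miR-137-3p had 13. The neural rows summed to 39.0 to 176 CPM in TC, 50.4 to 89.2 CPM in PC and 37.1 to 110 CPM in TQ. The 4 rows of miR-129-5p had equal counts in every fish, with a total of 1004 at each row. Each row averaged 21.1 CPM in TC, 16.3 CPM in PC and 15.4 CPM in TQ. The neural sum may thus count the same reads up to 4 times. The islet miRNA miR-375 stood at 7.89 to 22.3 CPM in TC, 13.6 to 37.0 CPM in PC and 6.42 to 22.9 CPM in TQ, all copies summed. The neural and miR-375 ranges overlapped among the genotypes, and none of the neural or miR-375 loci tested was called in any contrast by edgeR. The neural loci tested were 4 rows of 1 name, miR-129-5p, so the other neural markers were not tested. At the 2 copies of miR-375 the log2FC in TC vs PC was -0.95 and -0.94, with edgeR adjusted p of 0.0968 and 0.101. The authors called both copies lower in TC with DESeq2. Loci of other marker lists were called. The summed striated muscle markers stood at 2292 to 3341 CPM in TC, 1920 to 2400 CPM in PC and 1242 to 1799 CPM in TQ, with 2 of 5 loci called higher in TC vs TQ and 1 of 5 in PC vs TQ. The liver marker miR-122 stood at 7.51 to 22.7 CPM in TC, 10.01 to 19.8 CPM in PC and 3.42 to 9.44 CPM in TQ and was called higher in both contrasts with TQ. The muscle sum and miR-122 were thus on the low side in TQ, as was copy 3. The leukocyte markers, at 254 to 362 CPM in TC, 149 to 307 CPM in PC and 350 to 480 CPM in TQ, had 2 of 5 loci called lower in each contrast with TQ. The exocrine pancreas markers, at 19.3 to 46.1 CPM in TC, 6.18 to 13.6 CPM in PC and 18.3 to 30.4 CPM in TQ, had both loci tested called higher in TC vs PC and lower in PC vs TQ. The erythroid markers, at 3754 to 14585 CPM in TC, 2403 to 3904 CPM in PC and 1287 to 9215 CPM in TQ, had 1 of 2 loci called higher in TC vs TQ and 1 of 2 called lower in PC vs TQ. In TC vs PC their median log2FC was 1.37, with 0 of 2 called by edgeR. The authors, with DESeq2, called both of these higher in TC vs PC. The part of such cells in the miR-7a values was not tested. In bulk muscle, fewer cells of a type and less RNA per cell cannot be told apart.

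dre-miR-7a was a rare miRNA in this muscle. Its 3 rows held 603 counts in all 15 fish, 0.00101% of the total. Copies 1 and 2 had equal counts, so these may include the same reads 2 times, and copies 1 and 3 alone held 418. The total may repeat reads as well, since abundant names had nearly equal copies. The 3 copies of miR-199-5p, for example, held 8843044 to 8843173 counts each. By mean CPM, copy 3 ranked 188th and copies 1 and 2 ranked 193rd among the 272 loci with counts. All 3 copies passed the minimum used for fold changes, a mean normalized count of at least 10, as did 199 loci in all.

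Copies 1 and 2 had the same count in 15 of 15 fish. Copy 1 had 5, 14, 18, 10 and 5 counts in TC 3, 4, 5, 6 and 8, against 18, 19, 24, 9 and 9 counts in PC 10, 3, 4, 5 and 8 and 5, 11, 18, 16 and 4 counts in TQ 1, 2, 3, 6 and 8. In CPM these were 1.25, 3.003, 3.16, 2.63 and 2.22 in TC, 6.44, 5.22, 3.71, 1.54 and 2.85 in PC and 1.79, 2.08, 5.80, 6.40 and 0.976 in TQ. The 3 genotypes overlapped widely. The level of copy 1 averaged 2.45 ± 0.764 CPM in TC, 3.95 ± 1.93 CPM in PC and 3.41 ± 2.499 CPM in TQ (SD, n = 5 each), so that neighbours in the order PC, TQ, TC differed by less than 1 SD of TQ. TC was higher in 6 of the 25 pairs with PC and in 13 of the 25 pairs with TQ, and PC was higher in 15 of the 25 pairs with TQ. TQ 3 and TQ 6 stood with the higher PC fish, and the other 3 TQ fish stood at 2.08 CPM or lower.

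Copy 3 showed another pattern. It had 23, 19, 22, 23 and 8 counts in TC 3, 4, 5, 6 and 8, against 25, 32, 43, 6 and 8 counts in PC 10, 3, 4, 5 and 8 and 2, 4, 6, 10 and 2 counts in TQ 1, 2, 3, 6 and 8. In CPM these were 5.76, 4.08, 3.86, 6.05 and 3.55 in TC, 8.94, 8.79, 6.64, 1.02 and 2.53 in PC and 0.715, 0.755, 1.93, 4.001 and 0.488 in TQ. 4 TQ fish lay below every TC fish, and TQ 6 lay inside the TC range. Copy 3 averaged 4.66 ± 1.16 CPM in TC, 5.58 ± 3.63 CPM in PC and 1.58 ± 1.47 CPM in TQ (SD, n = 5 each).

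The 5 TC fish were close together at copy 3, with a coefficient of variation of 24.8%, against 65.0% in PC and 92.9% in TQ. PC held both the highest and some of the low values: PC 10, 3 and 4 were above all TC and TQ fish, and PC 5 and PC 8 were below all TC fish. Of the 25 pairs of 1 TC and 1 TQ fish, TC was higher in 23. PC was higher in 22 of the 25 pairs with TQ, and TC was higher in 10 of the 25 pairs with PC. TQ 1 and TQ 8 had 2 counts each, fewer than the 3 counts that a count of 0 allows, so their levels rest on almost no reads.

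**Figure D1:**
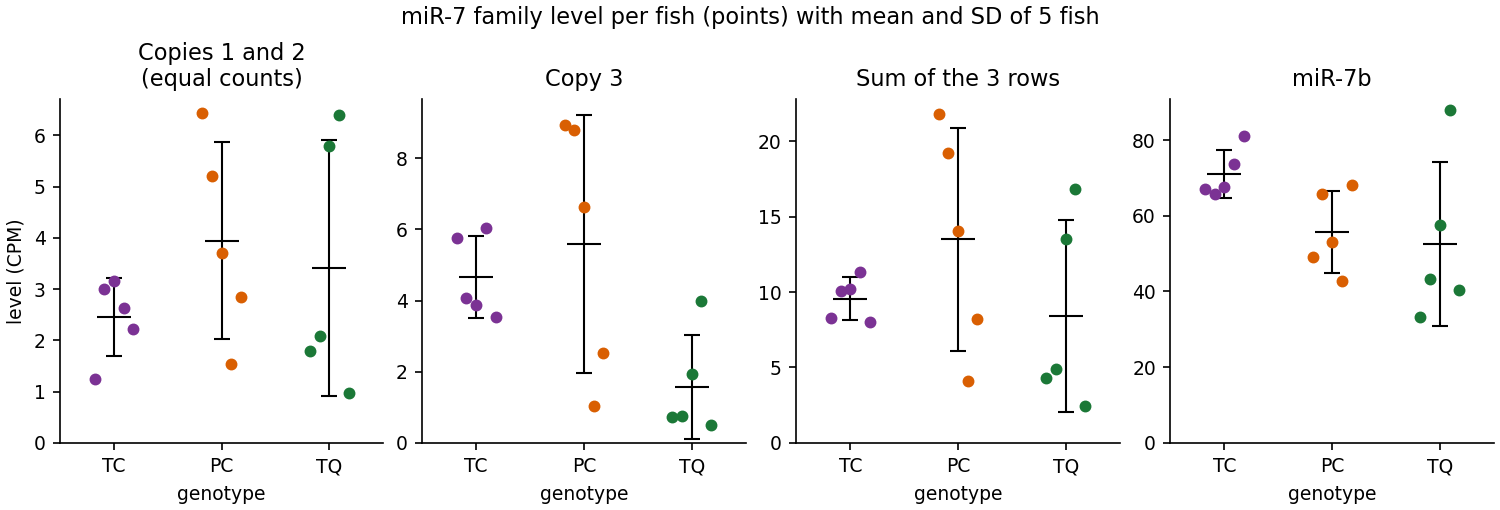
Level in CPM (y axis, from 0, own scale in each panel) of copies 1 and 2, copy 3, the sum of the 3 miR-7a rows and miR-7b in each fish (points) of TC, PC and TQ (x axis), with the mean (wide bar) and SD of 5 fish (error bar). At copy 3 the mean is 4.66 CPM in TC and 5.58 CPM in PC, against 1.58 CPM in TQ, while copies 1 and 2 overlap among all genotypes.

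The ratio of copy 3 to copy 1 within a fish does not depend on the scaling of the libraries. It was lower in every TQ fish than in any TC or PC fish. It was 4.60, 1.36, 1.22, 2.30 and 1.60 in TC 3, 4, 5, 6 and 8, against 1.39, 1.68, 1.79, 0.667 and 0.889 in PC 10, 3, 4, 5 and 8 and 0.400, 0.364, 0.333, 0.625 and 0.5 in TQ 1, 2, 3, 6 and 8. Copy 3 exceeded copy 1 in 5 of 5 TC fish, 3 of 5 PC fish and 0 of 5 TQ fish. The highest TQ ratio, 0.625, was below the lowest in TC, 1.22, and the lowest in PC, 0.667. TQ thus overlapped with neither, while TC and PC overlapped. The gap to PC was narrow, with 6 and 9 counts at copies 3 and 1 in PC 5 against 10 and 16 in TQ 6. For these fish the exact Clopper-Pearson 95% intervals of copy 3 among copies 1 and 3 overlapped. They were 16.3 to 67.7% in PC 5 and 20.2 to 59.4% in TQ 6. Copy ratios without overlap were also found for other names, as given below. TQ 6, the TQ fish with TC-like copy 3 CPM, also had 16 counts at copy 1, and its ratio was on the TQ side.

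As a share of the counts of the 3 rows, copy 3 made up 49.2 ± 12.9% in TC, 37.9 ± 9.69% in PC and 18.03 ± 3.88% in TQ (SD, n = 5 each). Since copy 2 repeated copy 1, the share was also taken of copies 1 and 3 alone, a choice made with the data in view. It was then 65.2 ± 11.0% in TC, 54.4 ± 10.5% in PC and 30.4 ± 5.48% in TQ. Single fish were imprecise. The exact Clopper-Pearson 95% interval of copy 3 among copies 1 and 3 was 63.1 to 93.9% in TC 3, which had 28 counts, 51.5 to 75.5% in PC 4, which had 67 counts, and 4.33 to 77.7% in TQ 8, which had 6 counts. These intervals cover counting error only, and they take copies 1 and 3 as counted from different reads, which was not tested.

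**Figure D2:**
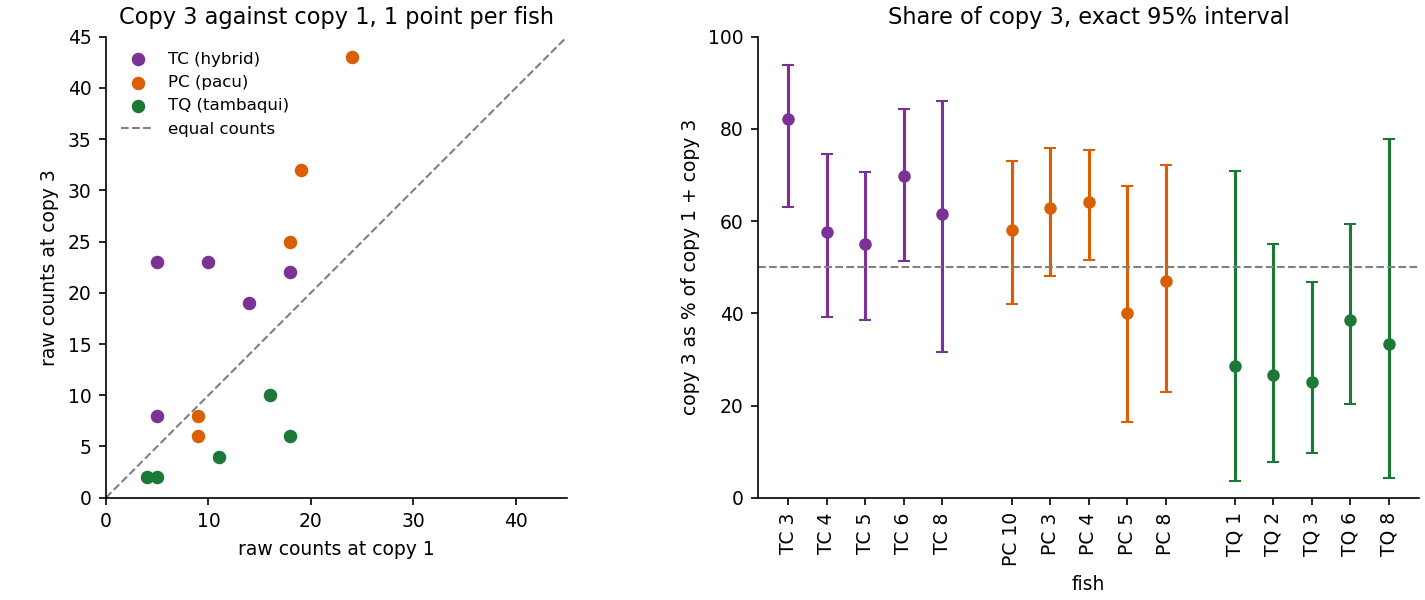
Left: raw counts at copy 3 (y axis) against raw counts at copy 1 (x axis), 1 point per fish, with a dashed line where both are equal. Right: copy 3 as a percent of the counts of copies 1 and 3 in each fish (x axis), with exact 95% intervals and a dashed line at 50 percent. All 5 TC fish lie above equality and all 5 TQ fish below it, and most intervals of single fish are wide.

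Fold changes were taken from an edgeR quasi-likelihood fit over all 15 fish and 199 loci, and a call needed a log2FC of 0.75 or more in either direction and an adjusted p of 0.05 or less. In TC vs PC, 0 of the 3 copies were called, beside 3.52% of all loci tested. In TC vs TQ, 1 of 3 was called (copy 3), beside 14.6% of all loci, and in PC vs TQ 1 of 3 (copy 3 again), beside 10.6%. These contrasts were among the values from which the miRNA was chosen, so nothing is read from the counts.

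The log2FC of copies 1 and 2 was -0.61 (SE 0.47) in TC vs PC, -0.37 (SE 0.49) in TC vs TQ and 0.23 (SE 0.47) in PC vs TQ. That of copy 3 was -0.22 (SE 0.50) in TC vs PC, 1.69 (SE 0.59) in TC vs TQ and 1.91 (SE 0.59) in PC vs TQ, the last 2 being 3.23-fold and 3.77-fold higher levels. Copies 1 and 2 thus stayed under 0.75 in either direction in the 3 contrasts of this fit. Without PC 5, copy 1 stood at -0.80 in TC vs PC, with no call. Copy 3 was lower in TQ than in both other genotypes, as were the summed muscle markers and miR-122. Leukocyte markers went the other way, with 2 of 5 loci called lower in each contrast with TQ. The 2 exocrine pancreas loci tested were called lower in PC vs TQ, and 0 were called in TC vs TQ. The erythroid markers were mixed, with 1 of 2 loci called lower in PC vs TQ and 1 of 2 called higher in TC vs TQ. A link between copy 3 and any of these markers was not tested. Against the mean of its parents on the log2 scale, the hybrid stood at -0.49 (SE 0.42) for copies 1 and 2 and at 0.73 (SE 0.46) for copy 3.

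The edgeR calls of copy 3 depended on single fish. For TC vs TQ it disappeared when any 1 of TC 3, 4, 5, 6, 8 or TQ 1, 2, 3, 8 was left out, and the log2FC over all 15 such fits lay between 1.47 and 2.29. For PC vs TQ it disappeared without any 1 of PC 10, PC 3 or TQ 1, 2, 3, 8, with a log2FC between 1.68 and 2.51. TQ 6 pulled the other way: without it the log2FC was 2.29 in TC vs TQ and 2.51 in PC vs TQ. The authors, with DESeq2, called copy 3 higher in both contrasts with TQ. DESeq2 on all 15 fish here called it in both too, with a log2FC of 1.67 in TC vs TQ and 1.99 in PC vs TQ. Like the edgeR calls, these are given as a description.

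**Figure D3:**
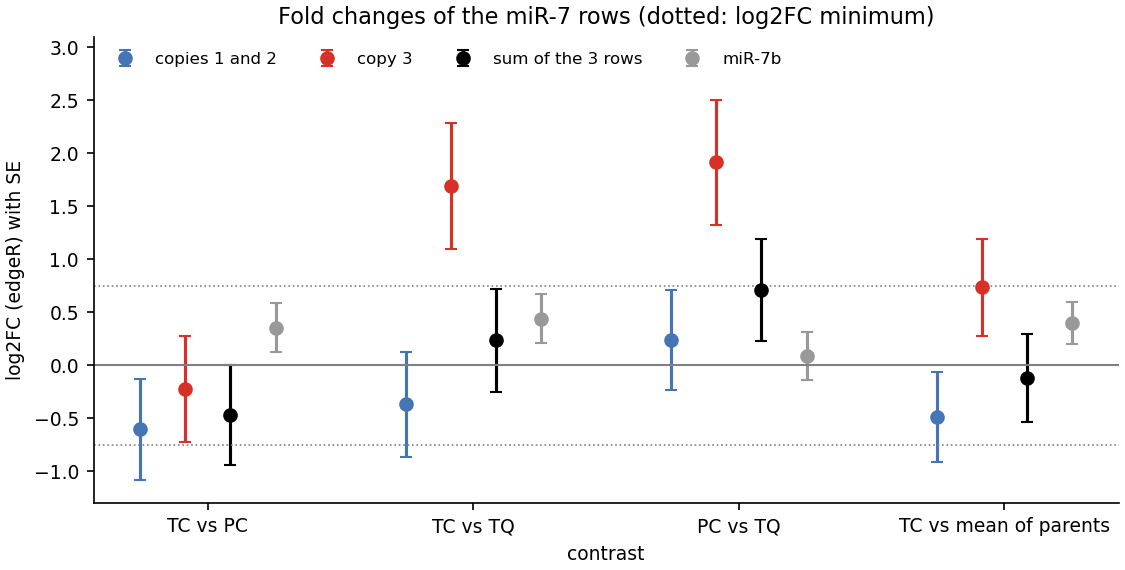
log2FC with its SE (y axis) of copies 1 and 2, copy 3, the sum of the 3 rows and miR-7b in 4 contrasts (x axis), with the minimum of 0.75 in either direction as dotted lines. Copy 3 stands at 1.69 in TC vs TQ and 1.91 in PC vs TQ, and the other rows stay inside the dotted lines.

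Summed over its 3 rows, dre-miR-7a had overlapping levels in the 3 genotypes. The sum was 8.26, 10.1, 10.2, 11.3 and 7.98 CPM in TC 3, 4, 5, 6 and 8, against 21.8, 19.2, 14.1, 4.09 and 8.23 CPM in PC 10, 3, 4, 5 and 8 and 4.29, 4.91, 13.5, 16.8 and 2.44 CPM in TQ 1, 2, 3, 6 and 8. The TC fish fell within the range of either parent. The sum averaged 9.57 ± 1.40 CPM in TC, 13.5 ± 7.39 CPM in PC and 8.39 ± 6.35 CPM in TQ (SD, n = 5 each), and each neighbouring pair in the order PC, TC, TQ differed by less than 1 SD of a parent. Its log2FC was -0.47 (SE 0.47) in TC vs PC, 0.24 (SE 0.49) in TC vs TQ and 0.71 (SE 0.48) in PC vs TQ. All were under the minimum of 0.75 in this fit. Other fits put the PC vs TQ value on both sides of 0.75, none with a call. It was 0.45 to 1.10 leaving out 1 fish and 0.44 to 0.97 in the other alternatives.

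The sum counts copies 1 and 2 separately although their counts were equal, and may thus count the same reads 2 times. With copy 2 left out, again with the data in view, the level was 7.11 ± 1.03 CPM in TC, 9.53 ± 5.49 CPM in PC and 4.99 ± 3.88 CPM in TQ, and the log2FC was -0.39 in TC vs PC, 0.58 in TC vs TQ and 0.97 in PC vs TQ, the last with an SE of 0.50. The order of the means was the same, and the range of TQ still overlapped with both others. Of the 87 windows of precursor 1, 35 also occur in precursor 3. Reads that match both may thus still be counted 2 times in this smaller sum, which was not tested.

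miR-7b, which has the same seed and was not used in the choice, was the more frequent miR-7 in this muscle. It had 3494 counts in all fish and averaged 71.1 ± 6.39 CPM in TC, 55.7 ± 10.9 CPM in PC and 52.5 ± 21.7 CPM in TQ (SD, n = 5 each). In single fish it ranged between 65.8 and 81.2 CPM in TC, 42.6 and 68.0 CPM in PC and 33.3 and 88.0 CPM in TQ, with overlap in each contrast. TC was the most even genotype here as at copy 3, with a coefficient of variation of 8.99%, against 19.5% in PC and 41.4% in TQ.

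miR-7b was tested with the rest of the matrix and was called in no contrast. Its log2FC was 0.35 (SE 0.23) in TC vs PC, with an adjusted p of 0.410 by edgeR's quasi-likelihood test with Benjamini-Hochberg adjustment. It was 0.44 (SE 0.23) in TC vs TQ, with an adjusted p of 0.166 by the same edgeR test, and 0.09 (SE 0.23) in PC vs TQ, with an adjusted p of 0.824. TC was higher in 22 of 25 pairs with PC and in 20 of 25 pairs with TQ. Relative to copy 3, miR-7b was 16.1 ± 4.56 times as frequent in TC, 17.9 ± 15.9 times in PC and 47.7 ± 24.1 times in TQ. These are means over fish, and the medians were 16.2, 7.98 and 46.5. In TQ 1 and TQ 8 the ratio rests on 2 counts at copy 3. Relative to copy 1 the order was another, with means of 32.3 ± 13.4 in TC, 17.2 ± 8.34 in PC and 20.9 ± 12.3 in TQ.

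Divergent copies were uncommon in the matrix. Of 40 mature names with counts at 2 or more copies, 12 had equal counts in every fish and 32 had a lowest copy within 5% of the highest, by totals over all fish. Among the 35 names whose highest copy had at least 100 counts, dre-miR-7a was the fourth most unequal, with a lowest over highest ratio of 0.794. The neuronal miR-124-5p (0.0972), let-7a, a miRNA of developmental timing (0.565), and the muscle miRNA miR-206-3p (0.673) were more unequal, and miR-99, a relative of miR-100, came next (0.842).

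By row of the count matrix, the copies of dre-miR-7a changed order between genotypes. The rows are zebrafish precursors, and the miR-7a precursors of the 3 genotypes were not available here. Whether reads of the same fish gene fall on different rows in different genotypes was not tested. Taking copy 3 over copy 1 alone, which equals copy 2, by the summed counts of 5 fish, the ratio was 1.83 in TC, 1.44 in PC and 0.444 in TQ, a 4.11-fold spread. The next spreads among the 35 names were 1.59-fold for miR-124-5p and 1.51-fold for let-7a, and the median was 1.003-fold. These names differ in depth. Per genotype, dre-miR-7a had 24 to 114 counts at copy 3 and 52 to 79 at copy 1, and miR-124-5p had 21 counts in all at its lowest copy. The median also covers names with equal counts in every fish, and names with far more counts, such as miR-99 with 2933302 at its highest copy. Fish by fish, over the 26 names with copies that were not equal and had counts in every fish, the copy ratio did not overlap between TC and PC for 7.69%, between TC and TQ for 7.69% and between PC and TQ for 15.4%, with dre-miR-7a among them in both contrasts with TQ. Its divergence was part of why the name was chosen, so its rank is a description.

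**Figure D4:**
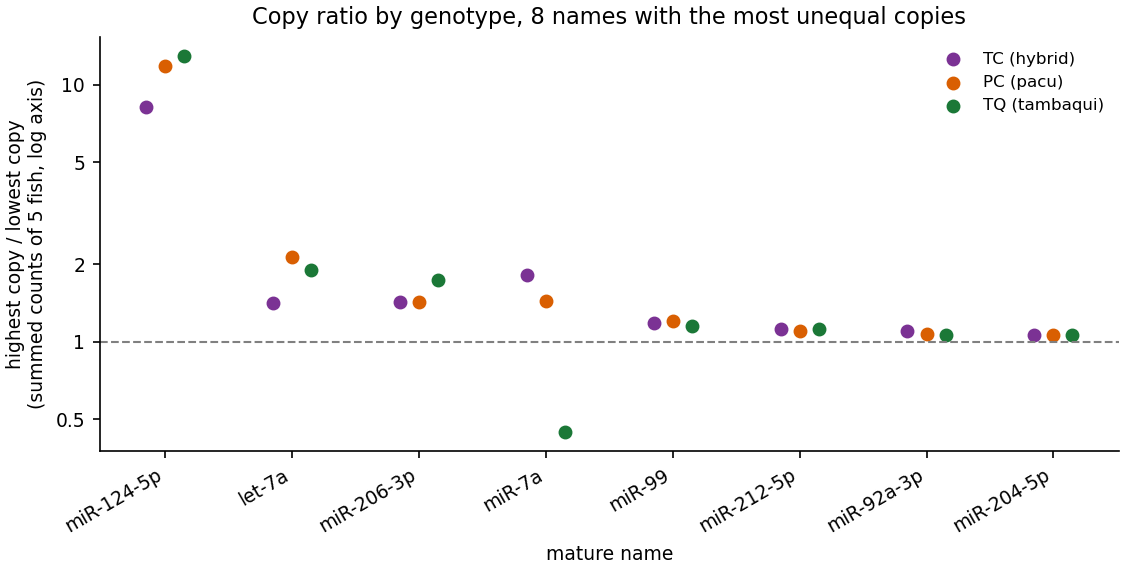
Ratio of the highest to the lowest copy by summed counts of 5 fish (y axis, log scale) in TC, PC and TQ for the 8 names with the most unequal copies (x axis), where highest and lowest are set over all 15 fish and the dashed line marks equal copies. For miR-7a the ratio is 1.83 in TC, 1.44 in PC and 0.444 in TQ, and it alone among these names crosses the line.

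Across the 15 fish, log2 CPM of copies 1 and 3 had a Pearson r of 0.59 and a Spearman rho of 0.60, over points that share library and depth and come from genotypes with different means. Within PC and within TQ the 5 fish stood in the same order at both copies, and within TC they did not. Reads that match precursors 1 and 3 may be counted at both copies, so these values may share reads, which was not tested. For copy 1 and miR-7b, r and rho were 0.41 and 0.34, and for copy 3 and miR-7b 0.65 and 0.42. Among 150 other names, the pattern most like copy 3 was that of miR-222a-5p, known from blood vessels and cell cycle control (r = 0.73, rho = 0.68, r = 0.60 without the 2 fish farthest from the median). It was followed by miR-10c-5p, of the miR-10 family that lies in Hox gene clusters (r = 0.72, rho = 0.57, r = 0.54), and by miR-199-5p, a miRNA of mesenchymal cells (r = 0.66, rho = 0.56, r = 0.54). For the sum, miR-10c-5p (r = 0.62), miR-30e-5p (r = 0.61) and miR-222a-5p (r = 0.58) were nearest, and without the 2 farthest fish these were 0.40, 0.35 and 0.39. All are 15-point descriptions picked as the highest of many.

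Other neuroendocrine miRNAs gave a background for the family. Of 27 listed names, 18 had counts, and 24 loci of 11 names passed the minimum. In TC vs PC 0 of these 24 loci were called by edgeR, beside 3.52% of all loci, in TC vs TQ 1, beside 14.6%, and in PC vs TQ 2, beside 10.6%. Their median log2FC was -0.11, 0.08 and 0.12 in the 3 contrasts in that order, against 0.02, 0.03 and 0.00 over all loci tested. This median is over rows, so names with several near-equal copies weigh more: miR-9-3p had 5 rows, miR-129-5p 4 and miR-128-3p 3. In PC vs TQ the rows of these names stood between -0.09 and 0.08, and the other loci between 0.17 and 1.62. A median with 1 row per name was not taken. The locus that rose in TC vs TQ was miR-182-5p, a miRNA of sensory organs, with 17.4 ± 4.29 CPM in TC and 10.6 ± 4.17 CPM in TQ (SD, n = 5 each), a log2FC of 0.75 (SE 0.26) and an edgeR adjusted p of 0.0397. This log2FC lies at the minimum, and the call was lost in 8 of 15 fits that left out 1 fish (PC 10, TC 3, 4, 5, 6 or TQ 2, 3, 8), with a log2FC of 0.58 to 0.93 over the 15, and in 5 of 11 other alternatives, with a log2FC of 0.40 to 0.78. The loci that rose in PC vs TQ were both copies of miR-132-3p, which neuronal activity induces in mammals, with 40.0 ± 17.4 CPM in PC and 13.03 ± 4.20 CPM in TQ, a log2FC of 1.62 (SE 0.34) and an edgeR adjusted p of 0.00494. The call of the first miR-132-3p copy held in all 15 fits that left out 1 fish and in all 11 other alternatives. The authors, with DESeq2, called both copies of miR-132-3p, both of miR-375 and a copy of miR-138-5p lower in TC vs PC. They called miR-212-5p higher in both contrasts with TQ and miR-132-3p higher in PC vs TQ. They did not list miR-182-5p.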

How the data were processed

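Small RNA libraries (TruSeq, single-end) of fast muscle from 15 fish, 5 per genotype, were analysed. The authors trimmed adapters, kept reads of 17 to 26 bases, aligned them to zebrafish miRBase 22 precursors with Hisat2 and counted them per mature locus with featureCounts, and the deposited matrix holds raw counts per locus. A deposited normalized matrix (signal: counts divided by size factors) was used only for a check against the raw counts. The minimum mean used DESeq2 size factors computed from the raw counts. Treatment of reads matching several precursors is not given in the sources used here. Mature positions on precursors came from the study's own annotation.

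The 199 of 595 loci whose normalized counts averaged 10 or more were fitted with edgeR 4.0.16 (glmQLFit, glmQLFTest, TMM after this filter, all 15 fish, Benjamini-Hochberg over 199 loci), and SE was taken from the F statistic. CPM used TMM-scaled totals, with a prior count of 2 on the log2 scale. On simulated counts with a log2FC of 1.5, 98.3% of 59 changed loci were recovered in TC vs TQ, with 1 false call. It was 100% of 59 in TC vs PC, with 3 false calls, and 98.3% of 60 in PC vs TQ, with 0. The changed loci were drawn from loci of all depths, so the recovery at the depth of the miR-7a copies is not given by this. Alternatives were DESeq2 1.42.0, other scalings, filters, summed copies, both genotypes only, a replicate block, no log2FC minimum and leaving out each fish.

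Named miRNAs were the 3 copies, their sum, miR-7b, the 3 most similar names to the sum and to copy 3, the 5 names with the most unequal copies, called loci of the neuroendocrine list, and muscle markers. The members and lists were chosen with earlier results of these data known. Replicates are separate fish. The copies had 2 to 43 counts per fish, which limits precision, beside the spread between fish.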

Additional observations from a re-analysis of the deposited data

How the results depend on the processing

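The log2FC of copy 3 stayed positive in both contrasts with TQ, at 1.47 to 2.29 in TC vs TQ and 1.68 to 2.51 in PC vs TQ leaving out 1 fish, and at 1.31 to 1.71 and 1.56 to 2.03 in the other alternatives, but it was not always called. With total counts as library sizes or with the replicate block the number of copies called was 0 in both contrasts, and it was also 0 with reads after the size filter as library sizes in TC vs TQ and with only both genotypes in the fit in PC vs TQ. Leaving out 1 fish, it was 0 to 1 in both. Fish numbers did not pair the fish (correlations of deviations between -0.49 and 0.27 for shared numbers). The block gave copy 3 a log2FC of 1.55 in TC vs TQ and 1.56 in PC vs TQ. With it 1 locus was called in all in TC vs PC, 29 in TC vs TQ and 9 in PC vs TQ, against 7, 29 and 21 without it. PC 10, TQ 1 and TQ 2 have numbers that no other fish shares, so with the block these fish add nothing to the contrasts. Total counts moved the median log2FC of all loci to -0.10, -0.38 and -0.25 in these contrasts, in that order. The number of all loci called was 19, 53 and 27 with no log2FC minimum, 15, 34 and 30 with DESeq2, 15, 32 and 26 with no minimum mean count, 4, 31 and 14 with total counts, and 3, 1 and 8 with reads after the size filter. Leaving out 1 fish, it was 4 to 11, 17 to 34 and 16 to 38. Some values near 0 changed sign, none with a call: the sum in TC vs TQ with total counts (-0.08) and without TQ 8 (-0.037), copy 1 in PC vs TQ with the block (-0.17) and without TQ 8 (-0.014), copy 3 in TC vs PC without PC 3 (0.0015), and the sum against the mean of parents without PC 10 (0.027), TQ 3 (0.012) or TQ 6 (0.079) and with copy 2 left out (0.093). miR-7b in PC vs TQ was -0.16 with total counts and -0.037 without TQ replicate 1, with -0.037 to 0.35 over all such fits. Its adjusted p in TC vs TQ by edgeR or DESeq2 ranged between 0.0196 and 0.843, with a log2FC of at most 0.70.

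Neuroendocrine calls in TC vs PC were 4 with DESeq2, 3 with no minimum mean count, 1 with copies of every name summed, and 0 to 2 leaving out 1 fish. In TC vs TQ they were 2 with DESeq2, DESeq2 size factors, 1 copy per name in the library sizes, only both genotypes or the replicate block, 0 with total counts or reads after the size filter, and 0 to 3 leaving out 1 fish. In PC vs TQ they were 5 with DESeq2 or 1 copy per name, 4 with no minimum mean count, and 2 to 5 leaving out 1 fish. The share of copy 3 was 65.2% in TC, 54.4% in PC and 30.4% in TQ with copy 2 left out of the denominator, chosen after seeing the data, and 44.1 to 52.0%, 35.6 to 41.2% and 16.6 to 19.0% leaving out 1 fish. Copy 3 over the copy with the highest total gives no value, since copy 3 is that copy. The cause of these differences was not tested. Depth is low at the copies, with 2 to 43 counts per fish.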
